A study of Mus musculus with 10 samples.

Results

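The genes that let a beta cell sense glucose and prepare its hormone for release were compared between WT and KSR23 pancreas at P5 (postnatal day 5). The 9 genes were chosen by name: Pcsk1, Pcsk2, Chga, Chgb, Slc30a8, G6pc2, Slc2a2, Abcc8 and Kcnj11. All 9 were listed among the 24062 genes of the count tables, and all 9 passed the filter of at least 5 counts in every library that left 13882 genes for testing. Whole pancreas of C57BL/6 mice was sequenced, with 5 WT and 5 KSR23 libraries and each library counted as 1 mouse. KSR23 mice carry the R23 knock-in for both IL-23 subunits in the ROSA26 locus together with Cre recombinase driven by the keratin 14 promoter, which directs IL-23 to keratinocytes. WT mice were control littermates; whether any of them carried the R23 allele or Cre alone, and the sex of the mice, are not given in the sources used here.

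In a beta cell, glucose enters through the transporter encoded by Slc2a2 and is phosphorylated, a step that the phosphatase encoded by G6pc2 opposes. The ATP that follows closes a potassium channel made of Kir6.2 (Kcnj11) and SUR1 (Abcc8), the cell depolarizes, and calcium entry releases insulin granules. Inside those granules the prohormone convertases PC1/3 (Pcsk1) and PC2 (Pcsk2) cut proinsulin, the zinc transporter ZnT8 (Slc30a8) loads zinc for insulin crystals, and the granins chromogranin A (Chga) and chromogranin B (Chgb) help to form the granule. Alpha and other endocrine cells share many of these genes, PC2 and the granins above all.

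Of the 9 genes, 5 were lower in KSR23 mice (Pcsk1, Chga, Slc30a8, G6pc2 and Slc2a2), none was higher and 4 did not pass the test (Pcsk2, Chgb, Abcc8 and Kcnj11), at an adjusted p under 0.05 by the quasi-likelihood F-test of edgeR (Benjamini-Hochberg method over all 13882 genes). Over all tested genes 14.8% were called lower and 16.2% higher. In 4 of the 9 (Pcsk1, Slc30a8, G6pc2 and Slc2a2), every KSR23 mouse lay below every WT mouse, and in none did every KSR23 mouse lie above, against 8.74% and 10.7% of all tested genes. The median log2 fold change (FC) of the 9 was -0.40, and that of all tested genes was -0.01. Because a whole organ was sequenced, fewer cells of a type and less RNA per cell cannot be told apart for any of these genes.

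**Figure D1:**
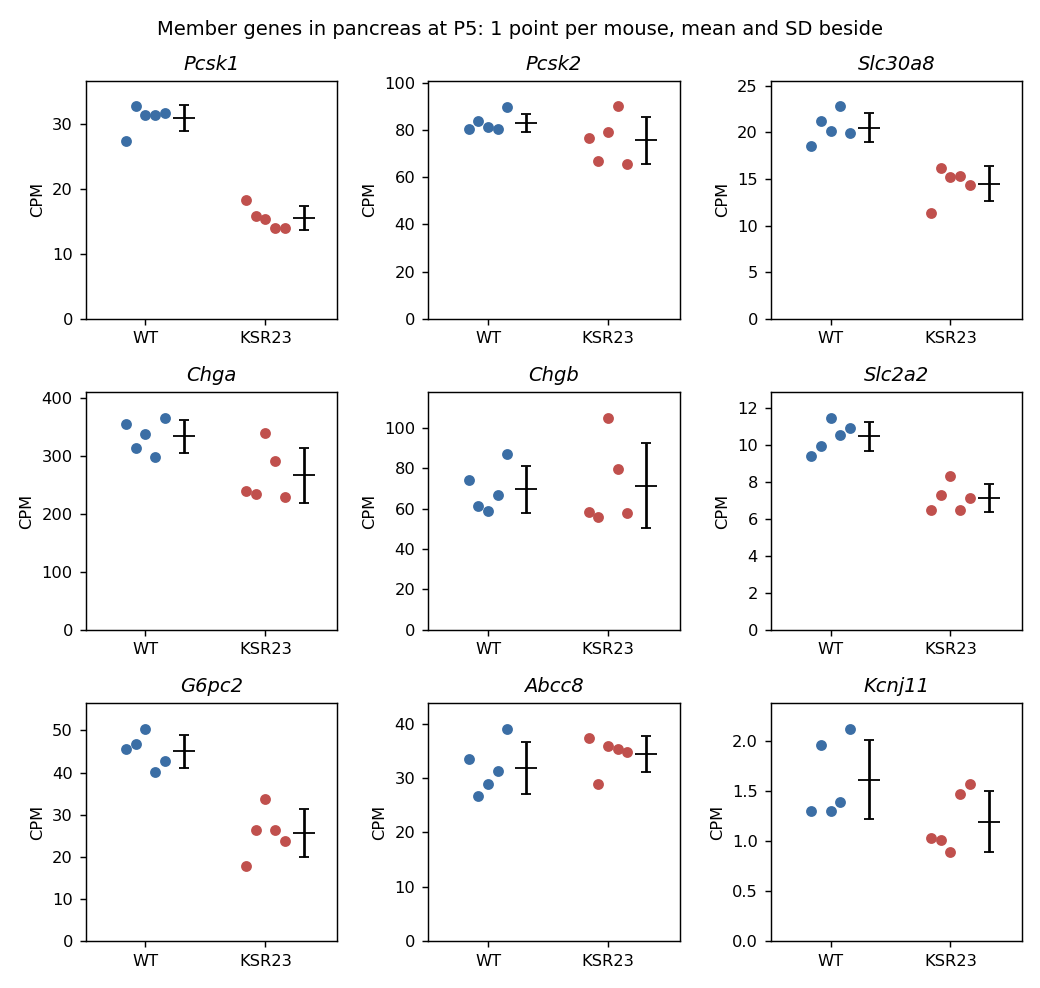
Level of each of the 9 genes in CPM (read counts divided by the TMM-scaled library size, linear axes from 0), with 1 point per mouse for 5 WT and 5 KSR23 mice and the group mean with its SD beside the points. The KSR23 points lie wholly below the WT points for Pcsk1, Slc30a8, Slc2a2 and G6pc2, and overlap them for the other genes.

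To show the promoters of the genes that were lower, with Pcsk2 beside its partner convertase, the bases upstream of the RefSeq transcript start are given 5′ to 3′ from the GRCm38.p6 promoter table, which held windows for 6 of the 9 genes. Capitals mark TGACG or its reverse complement, the core of the cAMP response element (CRE), and the full CRE TGACGTCA where the window holds one. The windows are chr13:75089607-75089825 for Pcsk1 (the 219 bases before its annotated first exon), chr2:143545883-143546132 for Pcsk2, chr12:102554691-102554940 for Chga, chr2:69210823-69211072 for G6pc2 and chr3:28697653-28697902 for Slc2a2, all on the plus strand. From the Chgb window, which lies inside an annotated Chgb exon, only the 28 bases around the CRE at chr2:132781560-132781587 are shown.
Pcsk1: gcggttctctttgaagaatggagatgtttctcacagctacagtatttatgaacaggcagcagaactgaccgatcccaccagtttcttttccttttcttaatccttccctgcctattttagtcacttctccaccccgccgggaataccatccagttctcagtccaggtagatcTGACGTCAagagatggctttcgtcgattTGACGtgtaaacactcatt
Pcsk2: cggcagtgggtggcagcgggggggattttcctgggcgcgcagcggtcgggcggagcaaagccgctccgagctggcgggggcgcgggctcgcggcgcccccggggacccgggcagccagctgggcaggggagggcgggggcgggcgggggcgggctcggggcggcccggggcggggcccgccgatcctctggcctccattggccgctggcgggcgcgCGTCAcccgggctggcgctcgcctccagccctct
Chga: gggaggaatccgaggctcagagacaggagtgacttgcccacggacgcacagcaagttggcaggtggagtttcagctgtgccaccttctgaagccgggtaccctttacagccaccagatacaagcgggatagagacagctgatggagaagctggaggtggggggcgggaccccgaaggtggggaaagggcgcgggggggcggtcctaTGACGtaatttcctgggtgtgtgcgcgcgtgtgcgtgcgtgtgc
G6pc2: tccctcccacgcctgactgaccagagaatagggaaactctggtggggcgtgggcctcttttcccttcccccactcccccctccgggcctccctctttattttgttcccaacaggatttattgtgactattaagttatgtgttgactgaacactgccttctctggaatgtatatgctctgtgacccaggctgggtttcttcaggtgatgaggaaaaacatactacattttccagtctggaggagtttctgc
Slc2a2: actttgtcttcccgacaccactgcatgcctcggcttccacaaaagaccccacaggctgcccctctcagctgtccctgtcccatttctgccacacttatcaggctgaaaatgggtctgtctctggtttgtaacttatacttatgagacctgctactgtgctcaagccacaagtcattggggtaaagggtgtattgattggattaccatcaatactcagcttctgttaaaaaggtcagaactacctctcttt
Chgb: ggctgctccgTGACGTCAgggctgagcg
The full CRE was found in the 250 upstream bases of Pcsk1, 78 bases before the start, and of Chgb, 72 bases before it. Of 32851 RefSeq promoter windows, 1.55% hold TGACGTCA on either strand and 17.8% hold TGACG. Pcsk2 had 1 TGACG match, 34 bases before its start, and Chga had 1, 44 bases before its start. In Pcsk1 there were 3 TGACG matches, 2 of them the overlapping arms of the CRE. The window of Slc2a2 and both RefSeq windows of G6pc2 held none. Of these, Pcsk1 was lower in KSR23 mice and Chgb was not called. The Pcsk2 window was 82.4% G or C and held 7 matches to the SP1-type motif GGGCGG, which 32.7% of all windows hold, whereas the Pcsk1 window was 46.8% G or C and held none. TATAAA (12.4% of windows) and TAATTA (4.84%) were found in none of the members' windows, and CANNTG, which 66.2% of windows hold, was found at least once in the Pcsk2, Chga, Chgb, G6pc2 and Slc2a2 windows. These are matches of letters and not measured binding sites.

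The clearest difference was in the convertases. Pcsk1 (chr13:75089826-75134861, plus strand, 14 exons) encodes PC1/3, which makes the first cut in proinsulin. It measured 27.39, 32.74, 31.44, 31.40 and 31.72 CPM in the WT mice and 18.38, 15.84, 15.37, 13.96 and 14.01 CPM in the KSR23 mice. All 5 KSR23 mice were low, and the highest of them stood well under WT replicate 1, the lowest WT mouse. The mean fell from 30.94 ± 2.06 (SD, n = 5) to 15.51 ± 1.81 CPM (SD, n = 5), a log2 FC of -0.997 with an SE of 0.0888 (edgeR adjusted p = 1.17e-07), or a fold of 0.501.

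Pcsk2 (chr2:143546156-143816285, plus strand, 12 exons) encodes PC2, which cuts proinsulin in beta cells and proglucagon in alpha cells. It measured 80.41, 83.90, 81.27, 80.57 and 89.61 CPM in WT and 76.51, 66.82, 79.37, 90.03 and 65.69 CPM in KSR23 mice. The groups overlapped: KSR23 replicate 4 was the highest of the 10 mice, and the other 4 KSR23 mice were below all WT mice. The log2 FC was -0.14 with a 95% interval from -0.32 to 0.05 (edgeR adjusted p = 0.216). Exons of 2 antisense genes, Pcsk2os1 and Pcsk2os2, overlap those of Pcsk2, and with a strand setting that is not given in the sources used here, reads from them cannot be told apart from Pcsk2 reads.

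The balance of the convertases shifted within each library. The log2 ratio of Pcsk1 to Pcsk2 counts was -1.55, -1.36, -1.37, -1.36 and -1.50 in WT and -2.06, -2.07, -2.36, -2.69 and -2.23 in KSR23 mice. Every KSR23 mouse had the lower ratio, without overlap. The mean difference was -0.85 (two-sided exact permutation test over all ways to assign the 10 mice to groups of 5, p = 0.00794, the smallest these 10 mice allow, and adjusted p = 0.0185 over the 14 ratios tested). In linear terms the mean ratio went from 0.373 to 0.209.

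Slc30a8 (chr15:52295553-52335798, plus strand, 8 exons), the granule zinc transporter, was also lower. It measured 18.53, 21.24, 20.18, 22.79 and 19.92 CPM in WT and 11.31, 16.14, 15.20, 15.37 and 14.31 CPM in KSR23 mice. The groups did not overlap, and KSR23 replicate 1 was the lowest mouse. The log2 FC was -0.51 with an SE of 0.100 (edgeR adjusted p = 0.000879).

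Chga and Chgb, the granin pair, differed from each other. Chga (chr12:102554969-102565028, plus strand, 8 exons) measured 354.6, 313.8, 337.8, 297.4 and 366.2 CPM in WT and 238.9, 234.7, 339.1, 291.5 and 229.7 CPM in KSR23 mice. The groups overlapped through KSR23 replicate 3, which lay inside the WT range, and the other 4 KSR23 mice were below all WT mice. The log2 FC was -0.32 with an SE of 0.0984 (edgeR adjusted p = 0.018). This call was lost without KSR23 replicate 2 (adjusted p = 0.0523) or replicate 5 (adjusted p = 0.0527), and when libraries were scaled by their total alone (adjusted p = 0.127), all in edgeR's test.

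Chgb (chr2:132781278-132795079, plus strand, 5 exons) measured 74.35, 61.22, 58.60, 66.54 and 87.11 CPM in WT and 58.43, 56.11, 105.1, 79.66 and 57.66 CPM in KSR23 mice. The groups overlapped widely, with KSR23 replicate 3 highest of the 10 mice. Its log2 FC was 0.03 with a 95% interval from -0.31 to 0.38 (edgeR adjusted p = 0.896), and it was -0.14 without KSR23 replicate 3 (adjusted p = 0.381). Chga to Chgb counts as a log2 ratio gave 2.25, 2.36, 2.53, 2.16 and 2.07 in WT and 2.03, 2.06, 1.69, 1.87 and 1.99 in KSR23 mice. The ratio was lower in every KSR23 mouse, though the nearest WT and KSR23 mice almost touched. The mean difference was -0.34 (exact permutation test, p = 0.00794, adjusted p = 0.0185 over 14 ratios).

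KSR23 replicate 3 was the smallest library and stood apart from the other KSR23 mice on the second principal component of log2 CPM, at 33.4 against -13.3 to -2.31. It also held the most S100a8 RNA, a neutrophil and monocyte calcium-binding protein, at 76.35 CPM against a KSR23 low of 9.889. The part of these features in its high Chga and Chgb was not tested. Without this mouse Chga stayed lower, with a log2 FC of -0.42 (edgeR adjusted p = 0.000735).

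Of the glucose-sensing genes, G6pc2 changed most. G6pc2 (chr2:69211073-69227841, plus strand, 5 exons), the islet glucose-6-phosphatase subunit, measured 45.56, 46.67, 50.39, 40.14 and 42.63 CPM in WT and 17.80, 26.44, 33.81, 26.29 and 23.82 CPM in KSR23 mice. The groups did not overlap, with KSR23 replicate 3 the highest and replicate 1 the lowest of the KSR23 mice. The log2 FC was -0.82 with an SE of 0.121 (edgeR adjusted p = 4.7e-05), or a fold of 0.565.

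Slc2a2 (chr3:28697903-28731359, plus strand, 11 exons) encodes GLUT2, the main glucose transporter of mouse beta cells, which hepatocytes and enterocytes also use. It measured 9.420, 9.951, 11.47, 10.51 and 10.91 CPM in WT and 6.462, 7.313, 8.328, 6.493 and 7.138 CPM in KSR23 mice. All 5 KSR23 mice lay under the lowest WT mouse. The log2 FC was -0.56 with an SE of 0.108 (edgeR adjusted p = 0.00079).

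The subunits of the ATP-sensitive potassium channel did not pass the test. Abcc8 (chr7:46104523-46180033, minus strand, 39 exons) encodes SUR1, the sulfonylurea-binding subunit. It measured 33.55, 26.76, 28.88, 31.24 and 39.09 CPM in WT and 37.36, 28.84, 35.83, 35.42 and 34.76 CPM in KSR23 mice, with the KSR23 values inside the WT range. Its log2 FC was 0.11 with a 95% interval from -0.11 to 0.34 (edgeR adjusted p = 0.418), and the lower end of that interval lies above the log2 FC of Slc30a8.

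Kcnj11 (chr7:46093953-46100764, minus strand, 1 exon), the pore subunit Kir6.2, lies 3758 bases from Abcc8 on the same strand with no gene between them. It was the scarcest of the 9, with 16 to 88 counts per library. It measured 1.296, 1.956, 1.298, 1.386 and 2.122 CPM in WT and 1.031, 1.007, 0.8943, 1.468 and 1.570 CPM in KSR23 mice. Replicates 1 to 3 of KSR23 were below all WT mice and the other 2 were inside the WT range. With a log2 FC of -0.40 and a 95% interval from -0.97 to 0.16 (edgeR adjusted p = 0.227), the interval also covers the log2 FC of G6pc2, so this depth gives little precision. The log2 ratio of Abcc8 to Kcnj11 was higher by 0.54 in KSR23 mice, with overlap (exact permutation test, p = 0.0397, adjusted p = 0.0694 over 14 ratios).

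Levels of different genes were compared as mean CPM per kilobase of the longest coding transcript. In WT mice Chga was highest at 177.4, followed by Chgb at 25.39, G6pc2 at 23.83, Pcsk2 at 17.61, Slc30a8 at 10.42, Abcc8 at 6.54, Pcsk1 at 6.14, Slc2a2 at 1.88 and Kcnj11 at 0.513 CPM per kb. Neighbours in this order were within each other's range for Chgb and G6pc2 and for Abcc8 and Pcsk1, and the other neighbours were apart in all 5 WT mice. In KSR23 mice G6pc2, at 13.55 CPM per kb, stood below Pcsk2, at 16.02, with overlapping ranges, and the order was otherwise kept. Pcsk1 at 3.08 CPM per kb no longer shared a range with Abcc8 at 7.06.

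**Figure D2:**
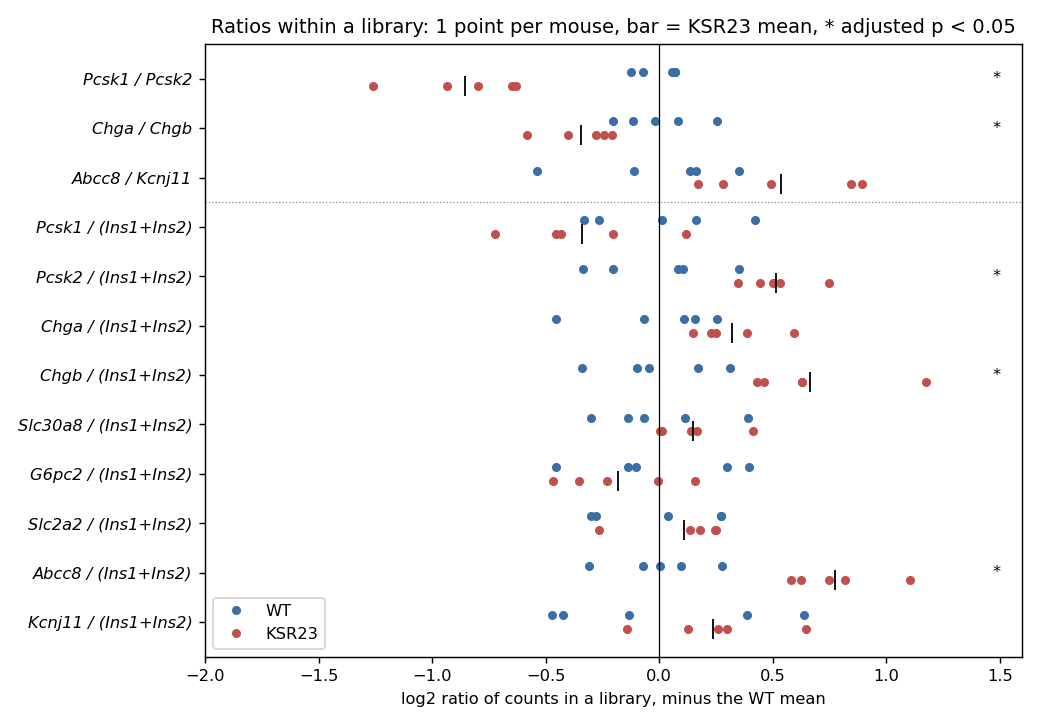
Log2 ratio of the counts of paired genes in a library, minus the WT mean (x axis), for 3 ratios between partners and 9 ratios of a member to Ins1 plus Ins2, with 1 point per mouse, a bar at the KSR23 mean and an asterisk where the adjusted p of the exact permutation test over 14 ratios was under 0.05. Pcsk1 to Pcsk2 and Chga to Chgb lie lower in KSR23 mice. Relative to insulin RNA, itself lower in these mice, Pcsk2, Chgb and Abcc8 lie higher.

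Insulin RNA itself was lower. Ins2 fell from 4206 ± 676 to 2496 ± 269 CPM (SD, n = 5 each; log2 FC -0.75, edgeR adjusted p = 8.22e-05). Ins1 went from 1132 ± 218 to 866.5 ± 147 CPM (log2 FC -0.39, edgeR adjusted p = 0.0291), a call lost in 5 of 18 alternative fits, with an adjusted p of up to 0.0982. Relative to the summed counts of both insulin genes, none of the 9 members was called lower and 3 were called higher. Because insulin RNA fell, a gene with steady CPM also rises in this ratio. In CPM none of the 3 was called, with log2 FCs of 0.11 (Abcc8), 0.03 (Chgb) and -0.14 (Pcsk2). The share of all tested genes that would be called in this ratio is not given here. Abcc8 rose by 0.78, Chgb by 0.67 and Pcsk2 by 0.51 on the log2 scale of this ratio (exact permutation test, adjusted p of 0.0185, 0.0185 and 0.0317). The Abcc8 ratio ran from -7.69 to -7.10 in WT and from -6.80 to -6.27 in KSR23 mice without overlap, and the Chgb ratio did not overlap either.

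Of the members that were lower in CPM, Pcsk1 had a mean difference of -0.34 against insulin (adjusted p = 0.178, exact permutation test) and G6pc2 of -0.18 (adjusted p = 0.407). Slc30a8 and Slc2a2 had differences of 0.15 and 0.11 (adjusted p of 0.407 and 0.508 in the same permutation test), and Chga of 0.32 (adjusted p = 0.0864). A shift of these 5 genes relative to insulin RNA was thus not detected with 5 mice per group, and the ranges of the groups overlapped for each.

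The other genes of hormone processing and the granule were described by a list of 10. Of these, 7 were lower, 1 was higher and 2 were not called, with a median log2 FC of -0.60. Cpe, the carboxypeptidase that trims the basic residues left by the convertases, fell from 391.5 ± 24.3 to 235.9 ± 4.49 CPM (SD, n = 5 each; log2 FC -0.73, edgeR adjusted p = 4.21e-08). Pam, which amidates peptide hormones, had a log2 FC of -0.80 (edgeR adjusted p = 3.46e-05). Vgf, a granin-family neuropeptide precursor, had the lowest log2 FC of the list, -2.27, from 3.20 to 0.668 CPM (edgeR adjusted p = 7.06e-07). Scg2 and Scg3, secretogranins, and Ptprn and Ptprn2, granule membrane proteins known as islet autoantigens, had log2 FCs between -0.72 and -0.50. Pcsk1n, which encodes proSAAS, an inhibitor of PC1/3, was higher: it went from 19.66 ± 3.61 to 30.11 ± 5.01 CPM, with a log2 FC of 0.61 (edgeR adjusted p = 0.00135), although the ranges overlapped. Scg5, the 7B2 chaperone of PC2, had a log2 FC of -0.01, near that of its client Pcsk2. Cpd, a carboxypeptidase of the trans-Golgi, had a log2 FC of 0.01.

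Of 25 other genes that couple glucose to insulin release, 9 were lower, 1 was higher and 15 were not called, with a median log2 FC of -0.03. Lower genes included receptors that amplify secretion, Glp1r (log2 FC -0.90, edgeR adjusted p = 0.000451) and Gpr119 (-1.08, adjusted p = 0.00605). The receptors Gipr and Ffar1 of the same list were not called (log2 FCs of 0.31 and 0.13, edgeR adjusted p of 0.195 and 0.803). Rab27a and its granule-docking effectors were lower too, with Sytl4 (granuphilin) at 7.15 ± 1.46 against 14.44 ± 1.19 CPM in WT (log2 FC -1.01, edgeR adjusted p = 1.12e-05) and Sytl5 at a log2 FC of -0.92 (adjusted p = 0.000539). The membrane fusion genes Snap25, Stx1a and Vamp2 were not called. The gene that was higher, Glul, encodes glutamine synthetase and is not a step of glucose sensing.

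**Figure D3:**
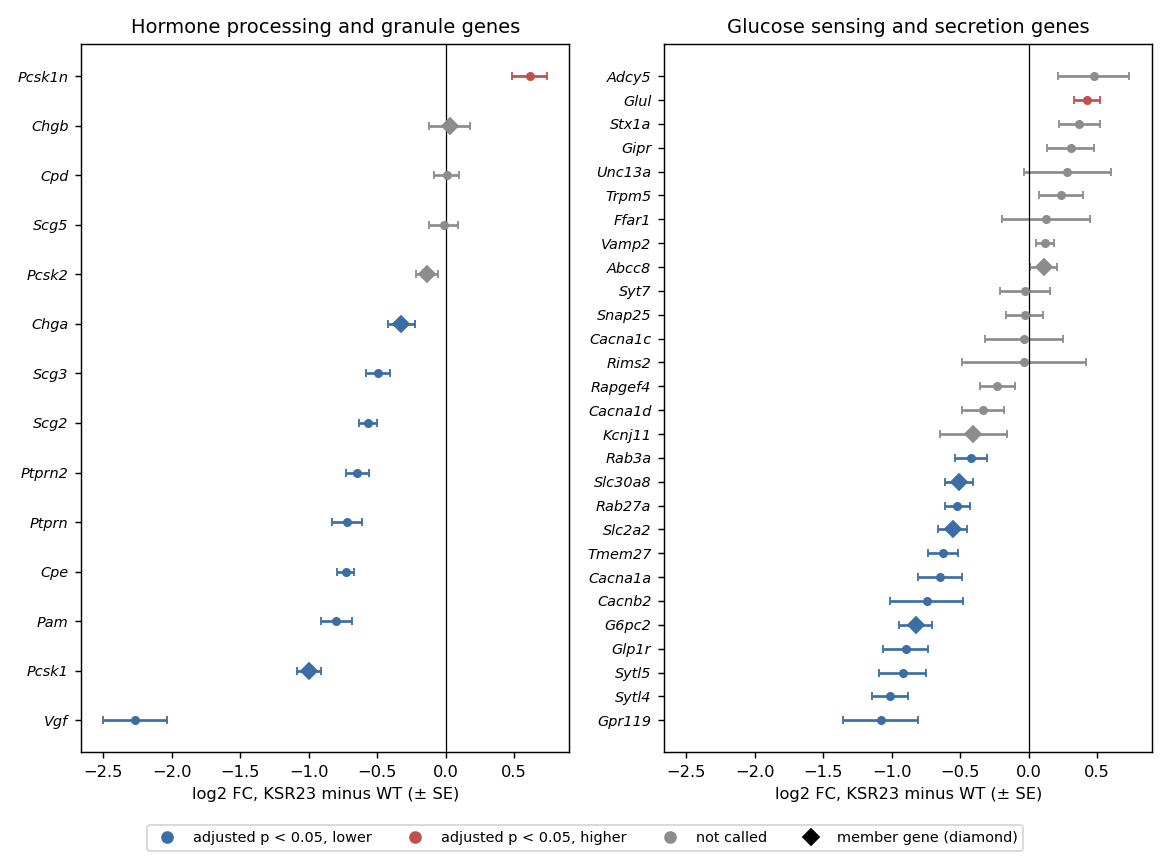
Log2 FC between KSR23 and WT mice with its SE (x axis) for the 14 genes of hormone processing and the granule and for genes of glucose sensing and secretion, members as diamonds, with blue for lower, red for higher and grey for not called at an adjusted p under 0.05 in edgeR's test. Vgf and Pcsk1 lie farthest to the left among granule genes, and Pcsk1n is the one granule gene called higher.

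The 9 members have widely expressed relatives, which were set beside them. Of 20 such genes 19 were tested: 2 were higher, 4 were lower and 13 were not called, with a median log2 FC of 0.06. Furin, the ubiquitous convertase, was higher where Pcsk1 was lower, at 41.28 ± 7.46 against 30.11 ± 1.42 CPM (log2 FC 0.46, edgeR adjusted p = 0.0023). Hk1, a hexokinase with high affinity for glucose, went from 16.53 to 21.98 CPM, a log2 FC of 0.41 (edgeR adjusted p = 0.00759). The transporter Slc2a1, the phosphatase G6pc3 and the channel subunits Abcc9 and Kcnj8 were not called. G6pc, the liver enzyme, was not tested, and its level reached no more than 0.355 CPM in any mouse.

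Other islet genes did not move as a block. Gcg (glucagon) and Sst (somatostatin) were lower, with log2 FCs of -1.12 and -0.92, and Iapp, released together with insulin, had a log2 FC of -0.68 (edgeR adjusted p of 3.11e-07, 9.09e-06 and 3.56e-05). Ppy (pancreatic polypeptide) was higher, with a log2 FC of 0.95 (edgeR adjusted p = 0.00133), and of the 8 hormone genes 5 were lower and 3 higher in all. Of the other two that were higher, Ghrl lost its call in 10 of 18 alternative fits (adjusted p up to 0.128) and Pyy lost it with DESeq2 (adjusted p = 0.0613). Of 13 islet transcription factors tested, Mafa, an activator of insulin genes in mature beta cells, had a log2 FC of -0.84 (edgeR adjusted p = 0.00641), and Insm1 of -0.51 (adjusted p = 0.0148). The Insm1 call was lost in 1 of 18 alternative fits, with libraries scaled by their total alone (edgeR adjusted p = 0.055). Pdx1, a factor of beta cell identity, had a log2 FC of 0.03 and was among the 10 that were not called.

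Cells outside the islet can also express some members, so their markers were measured. The 10 genes of nerve and adrenal medulla, where granins and convertases are also made, summed to 25.2 to 34.1 CPM in WT and 24.0 to 30.3 CPM in KSR23 mice, against 581.9 to 689.3 and 448.7 to 633.0 CPM for the 9 members. Of the 8 tested, only Gap43 was called, and it was lower (log2 FC -0.78, edgeR adjusted p = 0.000402). Dbh and Pnmt, which define adrenaline-making cells, reached no more than 0.0754 CPM in any mouse. The part of nerve or adrenal cells in the levels of the members was not tested. Liver and gut genes other than Ttr, where Slc2a2 is also used, summed to 9.77 to 12.8 CPM in WT and 10.8 to 18.3 CPM in KSR23 mice. Slc2a2 itself ran from 6.46 to 11.47 CPM. Within the sum, Alb was lower (log2 FC -0.83, edgeR adjusted p = 0.0186), a call lost in 1 of 18 alternative fits. Vil1 was higher (log2 FC 0.41, edgeR adjusted p = 0.0336), a call lost in 5 of 18. The part of liver or gut cells in the level of Slc2a2 was not tested. Ttr, which islet cells express as well, was lower (log2 FC -2.09, edgeR adjusted p = 1.55e-12).

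The make-up of the tissue differed too. Of 9 acinar genes 7 were lower and 1 was higher, of 9 duct genes 8 were higher, and all 7 myeloid genes were higher, with myeloid sums of 95.6 to 112.5 CPM in WT and 132.6 to 312.4 CPM in KSR23 mice. Of 6 endothelial genes 2 were higher and 2 lower, 1 of these (Tek) with a call lost in 10 of 18 alternative fits (edgeR adjusted p up to 0.219), and of 7 mesenchymal genes 1 was higher and 1 lower. The part of these shifts in the levels of the 9 members was not tested. Ratios between genes of 1 library, such as Pcsk1 to Pcsk2, do not depend on how the libraries were scaled.

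Among mice of one group the members did not rise and fall as one. After group means were removed, Pearson's r over the 10 mice was highest for Chga with Chgb (0.915) and lowest for Slc30a8 with Abcc8 (-0.476). Pcsk1 followed none of the others closely, with r of 0.00473 with Pcsk2 and -0.46 with G6pc2. These values describe 10 libraries whose total counts also differed, from 16715976 to 57784136.

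Against the mean of the 9 members, scaled to unit SD with group means removed, the most similar genes that are no members were Pcdhga4 (r = 0.928), Sft2d3 (0.927), Ldlrad4 (0.912), Tmem198b (0.91), Cyp3a13 (0.905), Stk10 (0.904), Pmaip1 (0.903) and Mab21l2 (0.898). Of the islet hormones Ppy ranked 10 of 13882 (r = 0.891), whereas Ins2 had an r of 0.31. The 8 genes named were the highest of 13873 over only 10 mice, and picking from so many favours high r values. How many genes would reach such values by chance was not tested. With group means kept, the most similar were Acaa2 (0.957), Pclo (0.955), Klk1b5 (0.948), Itpka (0.946), Lrrc36 (0.945), Ech1 (0.944), Pdcd2l (0.941) and Sft2d3 (0.94). Pclo, which encodes piccolo, a protein of synapses and insulin secretion, was lower in KSR23 mice (log2 FC -0.87). With group means kept, the choice itself favours genes that differ between the groups as the members do. The fall of Pclo is therefore no separate result.

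**Figure D4:**
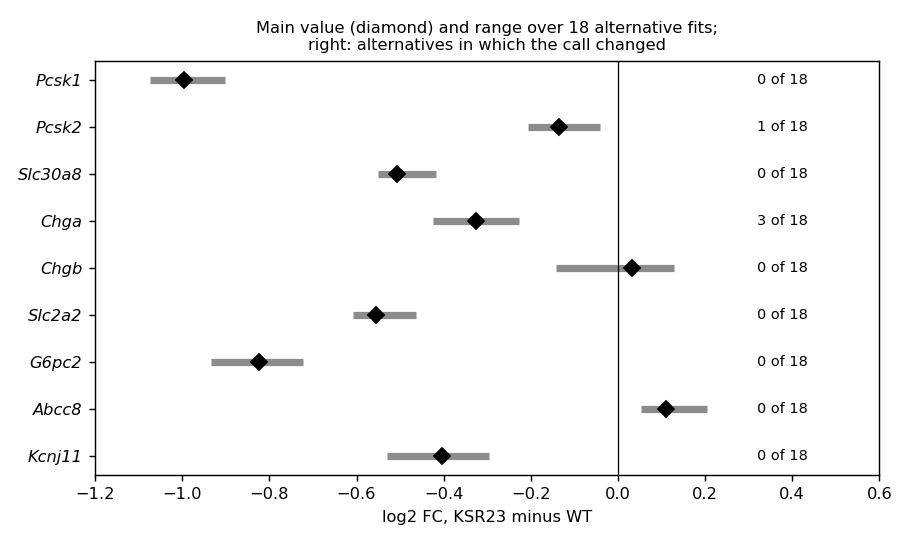
Log2 FC between KSR23 and WT mice for the 9 genes (diamond) with its range over 18 alternative fits (grey bar) on the x axis, and at the right the number of alternatives in which the call changed. Pcsk1, Slc30a8, G6pc2 and Slc2a2 kept their call in all 18, Chga lost it in 3, and Pcsk2 gained one in 1.

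Pcsk1 kept a log2 FC between -1.07 and -0.90 over the 18 alternative fits, which changed the test, the scaling or the filter, added the replicate number, or left out 1 mouse. G6pc2 ranged from -0.93 to -0.72, Slc2a2 from -0.61 to -0.46 and Slc30a8 from -0.55 to -0.42, and all 4 stayed called lower throughout. Without KSR23 replicate 4, Pcsk2 was also called lower, with a log2 FC of -0.21 (edgeR adjusted p = 0.0487).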

How the data were processed

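Total RNA of whole pancreas was primed with oligo-dT (SMART-Seq v4), amplified, tagmented (Nextera XT) and sequenced as single-end 75 base reads. The authors aligned the reads to mm10 with TopHat 2.1.0 and counted uniquely aligned reads per gene with htseq-count (0.6.1p1 in the submitters' processing notes) by strict intersection. The annotation and the strand setting are not given in the sources used here. Raw counts of 24062 genes per library were deposited, and the 5 htseq tallies per file were kept out of library sizes and tests.

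The filter of at least 5 counts per library left 13882 genes. Counts were scaled by TMM in edgeR 4.0.16 (R 4.3.3) and tested by the quasi-likelihood F-test of edgeR with Benjamini-Hochberg adjustment. SEs were the log2 FC divided by the square root of F, and 95% intervals used 8 residual degrees of freedom. Log2 ratios within a library, with a prior count of 2, were tested by exact permutation of the mice, two-sided, and adjusted over 14 ratios. The fit was tested on simulated data in which 200 genes were changed, far fewer than the 4299 called in the real data. It found 57.6% of genes changed by 0.5 on the log2 scale and 87.8% of those changed by 1. Of its 152 calls, 9 were false. With so few genes changed, these rates need not hold for the real data. A gene that was not called can thus still have changed by a small amount. As alternatives, 1 mouse was left out in turn, the replicate number was added as a block, the likelihood ratio test or DESeq2 1.42.0 was used, libraries were scaled by RLE, by their total or by their total less the 50 highest genes, and the count filter and the prior count were varied.

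Gene counts per library ranged from 26830235 to 33189132 in WT (median 29883015) and from 16715976 to 57784136 in KSR23 mice (median 36744810), and 3 counts, the least taken as detectable, are 0.0535 to 0.168 CPM. Reads copied by PCR were not marked, so counting limits cover counting error only. Libraries of 1 group differed by a chi-square per degree of freedom of 11.8 or more, so none was a copy. Alignments that were not unique, left uncounted by the authors, were 49.6% to 53.7% of all gene counts and tallies in WT and 38.5% to 42.5% in KSR23 libraries. In GENCODE M21 (GRCm38), 100% of the 75-base windows of each member's transcript were found in no other gene, except Pcsk2 at 95.9%.

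The members and gene lists were chosen with earlier results of these data known. Named genes were the 9 members, Ins1, Ins2, Gcg, Sst, Cpe and Pdx1, up to 4 called genes per direction and list with the largest log2 FC, and 8 genes most like the members by each measure. Others named (Scg2, Scg3, Ptprn, Ptprn2, Scg5, Cpd, Rab27a, the uncalled genes, S100a8 levels and the liver and gut sum without Ttr) were chosen after their values were seen. The values of some genes and ratios under this rule are not reported here. Jejunum libraries were not analysed here.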

Additional observations from a re-analysis of the deposited data

Results flagged for a closer look

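Of 48 sets of 5 mice checked (such as a member's CPM or a ratio in 1 group), 3 held a mouse far from its group by Dixon's criterion, where chance gives about 2.4. Pcsk1 in WT replicate 1 measured 27.39 CPM against 31.40 to 32.74 CPM in the other WT mice, on the side of the KSR23 mice and still above all of them. The log2 ratio of Chgb to Ins1 plus Ins2 in KSR23 replicate 3 was -5.083 against -5.829 to -5.629 in the other KSR23 mice. The log2 ratio of Slc2a2 to Ins1 plus Ins2 in KSR23 replicate 4 was -9.237 against -8.837 to -8.723.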

How the results depend on the processing

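Scaling by library totals alone gave 1164 genes lower in place of 2049 and 3072 higher in place of 2250, so that 72.5% of calls were higher in place of 52.3%, and the median over all tested genes was 0.09 on the log2 scale in place of -0.01. Over the alternatives the number of members called lower ran from 4 to 6 and none was called higher: it was 4 with this scaling and without KSR23 replicate 2 or 5 (Chga lost), and 6 without KSR23 replicate 4 (Pcsk2 gained). Among the 9 members and 66 other genes followed over the alternatives, 0 called log2 FCs reversed, and 13 of the 66 changed their call in at least 1 alternative. The ratio of Abcc8 to Kcnj11 was called with a prior count of 5, without WT replicate 1 and without KSR23 replicate 5, and that of Chga to insulin without WT replicate 2. Groups share replicate numbers that name different mice, and same-numbered mice did not deviate together (correlations from -0.111 to 0.0661). With the replicate number as a block, 3749 genes were called in place of 4299, with 5 members lower and no member call changed. Depth limits Kcnj11, with 16 counts in the smallest library.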
